A study of Callithrix jacchus with 20 samples.

Results

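Pre-ME cells, the precursors of mesendoderm from which marmoset PGC-like cells (cjPGCLCs) are induced, were compared by the medium in which their parent iPSCs had been kept. The comparison used 4 of the 20 RNA-seq libraries of the study, which were picked by their labels, and was read over all genes. It was chosen with earlier results of these data known. In 2 of these libraries, biological replicates 1 and 2, the pre-ME came from cjiPSCs kept in TESR medium, and in the other 2 libraries it came from cjiPSCs kept in cjPSCM. Both groups were made from DPZ_cjiPSC2, a single line of common marmoset (Callithrix jacchus) iPSCs reprogrammed from foetal fibroblasts and grown without feeder cells, so every test below measures the spread between cultures of 1 line. TESR (TeSR-E8) is a commercial defined medium. cjPSCM is an N2B27 base with CHIR99021 (CHIR, a GSK3 inhibitor), the SRC family kinase inhibitor A419259, the tankyrase inhibitor IWR-1, vitamin C, LIF, TGFβ and FGF2. All 4 cultures then received the same pre-induction, 24 h in aRB27 medium with 3 µM CHIR and the ROCK inhibitor Y-27632 on vitronectin, without Activin A (ActA), and the whole cultures were sequenced unsorted. The labels give no run or date for the libraries, so the medium of origin and any run cannot be told apart. In the study, pre-ME of both origins was tested for the competence to become cjPGCLCs, and the comparison asks what the starting medium leaves in the transcriptome once both cultures have received the same signal.

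GSK3 marks β-catenin for degradation, and its inhibition by CHIR switches on the canonical WNT programme, with feedback genes such as AXIN2, NOTUM and RNF43 and posterior genes such as CDX1 and CDX2. In the primate embryo, WNT, Nodal/Activin and BMP signals together turn epiblast cells into primitive streak, mesoderm and endoderm, while a small number of cells that keep pluripotency genes respond to BMP by becoming primordial germ cells. Pluripotent cells can be held in states that range from naive, which resembles the preimplantation epiblast, to primed, which resembles the epiblast before gastrulation, and the culture medium sets where in this range a line sits.

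Between 10465294 and 22067099 reads were counted on genes in the 4 libraries, with 17.2% to 20.6% of the counted reads outside annotated genes. The deepest pair was the TESR one, and the shallowest library was replicate 2 of the cjPSCM origin, in which 3 counts correspond to 0.287 CPM. Replicates differed from each other by a log2 ratio whose SD across genes was 0.311 for the TESR origin and 0.453 for the cjPSCM origin, below those of the parent cjiPSCs (0.619 in TESR and 0.959 in cjPSCM). Levels below are the authors' normalised counts, each count divided by the size factor of its library, and are given for replicate 1 and then replicate 2. They are not divided by gene length, so levels of different genes are not compared. Differences are log2 fold changes of the cjPSCM origin over the TESR origin with their standard errors (SE), tested with edgeR's quasi-likelihood test and adjusted by the Benjamini-Hochberg method. In such bulk libraries, fewer cells with a transcript and less of it per cell cannot be told apart.

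The labels held against marker genes in part. SP5, a direct target of β-catenin, measured 3672 and 4380.1 normalised counts in pre-ME of TESR origin and 1763 and 1444 in pre-ME of cjPSCM origin, against 64.5 and 89.3 and 20.7 and 23.7 in the respective parent cjiPSCs. All 4 pre-ME libraries therefore lay far above all 4 cjiPSC libraries. CDX1 and AXIN2 were also higher in all 4 pre-ME libraries, by a narrower gap for AXIN2. The mesendoderm markers TBXT and MIXL1 were low in every library: TBXT measured 14.8 and 7.95 in the TESR origin and 0.59 and 0.991 in the cjPSCM origin. EOMES, also a marker of mesendoderm, separated the origins and was lower in the cjPSCM origin (-4.47 ± 0.50, adjusted p = 8.46e-06). Libraries of both origins still held the pluripotency transcripts POU5F1, SOX2 and LIN28A.

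Of the 25102 genes in the table, 15797 had enough counts to be tested, and pre-ME of the 2 origins differed at 617 of them past both thresholds of the study, which are 0.05 for the adjusted p and 2 for the size of the log2 fold change. Of these, 424 were higher in pre-ME of cjPSCM origin (2.68% of the tested genes) and 193 were lower (1.22%). With the adjusted p alone, 1276 genes were higher (8.08%) and 942 lower (5.96%), and the median log2 fold change of all tested genes was -0.01. The counts of each gene list below are to be set beside these shares. In each of the 617 genes the libraries of one origin all lay above those of the other. The libraries of the origins did not overlap in 64.8% of all tested genes, so that feature by itself says little. In 10 of the 424 higher and 10 of the 193 lower genes no read was counted in the lower group, and 47 and 27 of them have only a LOC name. A stricter test, of whether the change exceeded a log2 fold change of 2, called 107 higher and 43 lower genes. When each library was left out in turn, between 467 and 528 of the 617 genes were still called and 0 changed direction.

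The largest increases in pre-ME of cjPSCM origin were ranked among genes that have a symbol, do not overlap between the origins and average 100 normalised counts or more in the higher origin, so genes at lower counts do not enter. SRGN encodes serglycin, the proteoglycan core of secretory granules, and measured 2.74 and 1.87 normalised counts in the TESR origin against 267 and 605 in the cjPSCM origin, a log2 fold change of 7.51 ± 0.64, adjusted p = 6.77e-07. SLC17A8, a vesicular glutamate transporter, measured 13.2 and 14.5 against 1374 and 1707 (6.79 ± 0.52, adjusted p = 3.42e-07). CYP1B1, a cytochrome P450 that is induced by the aryl hydrocarbon receptor, measured 179 and 103 against 3919 and 4481 (4.90 ± 0.41, adjusted p = 6.66e-07). The laminin chain LAMA2 and the collectin COLEC11, a lectin of innate immunity, were the most tightly measured: LAMA2 lay at 37.9 and 35.6 against 1063 and 902 (4.74 ± 0.32, adjusted p = 6.22e-08). COLEC11 lay at 30.2 and 26.2 against 629.6 and 844 (4.71 ± 0.28, adjusted p = 2.82e-08). For all 5 of these genes both cjPSCM libraries stood far above both TESR libraries. The others of the 12 genes with the largest increases were FXYD5, a regulator of the sodium pump, TRIML2, the tetraspanin TSPAN8, SOSTDC1, a secreted antagonist of BMP and WNT, the blood and endothelial bHLH factor LYL1, CRYBG1 and the muscarinic receptor CHRM3, with log2 fold changes from 4.34 (CHRM3) to 5.26 (FXYD5).

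The largest decreases were ranked by the same limits, with the mean of the TESR origin at 100 normalised counts or more. POU4F2, a factor of retinal ganglion cells, measured 157 and 139 normalised counts in the TESR origin and 2.95 and 1.98 in the cjPSCM origin, a log2 fold change of -5.79 ± 0.47, adjusted p = 4.99e-07. The secreted phosphoprotein SPP1, or osteopontin, measured 580.4 and 469 against 11.2 and 9.91 (-5.60 ± 0.29, adjusted p = 1.26e-08). The imprinted growth factor IGF2 measured 524 and 508 against 14.1 and 9.91 (-5.36 ± 0.34, adjusted p = 6.22e-08). Each of these genes was low in both cjPSCM libraries and high in both TESR libraries. BMP7, a BMP ligand, measured 846 and 626 against 25.3 and 10.9 (-5.24 ± 0.43, adjusted p = 4.99e-07), and the related BMP3, which antagonises other BMPs, measured 103 and 168 against 7.66 and 9.91 (-3.96 ± 0.33, adjusted p = 6.66e-07). GAD1, which makes the transmitter GABA, measured 1328 and 1632 against 97.3 and 67.4 (-4.14 ± 0.34, adjusted p = 5.26e-07). Within these limits, the 12 largest decreases also held EOMES, TCF21, the leucine-rich repeat protein LRRC17, the scavenger receptor COLEC12 and the ubiquitin ligase RNF43, several of which are described below.

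**Figure D1:**
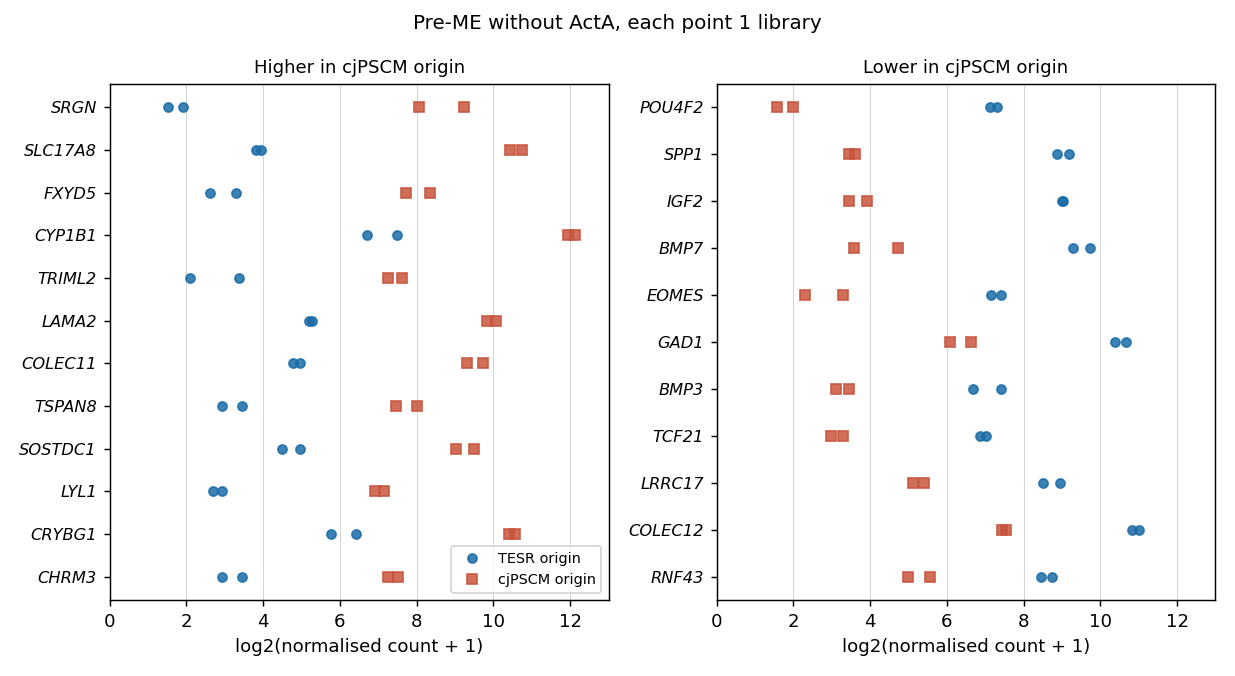
Level of the 12 genes with the largest increase and of 11 with the largest decrease in pre-ME of cjPSCM origin among genes that average 100 normalised counts or more in the higher origin, as log2(normalised count + 1) on the horizontal axis, with 1 point per library and the 2 origins in different colours and shapes. The points of the 2 origins stand apart in every row, and the replicates of an origin lie close together compared with that gap.

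Cytochrome P450 genes that share a regulator stood in opposite directions. While CYP1B1 rose, CYP1A1 measured 8.78 and 15.4 normalised counts in the TESR origin and 0 and 0 in the cjPSCM origin, at least 11.2-fold lower against a floor of 3 counts over the group (adjusted p = 0.00145). CYP1A1 was singled out after its values were seen. NQO1, another gene known to respond to the same receptor, measured 62.5 and 63.6 against 192 and 270.4 (1.87 ± 0.26, adjusted p = 8.48e-05), past the adjusted p but not past the fold threshold. In the parent cjiPSCs CYP1A1 measured 33.6 and 23.8 in TESR and 0 and 0 in cjPSCM, so no read of it was counted in the cjPSCM libraries at either stage.

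Core pluripotency factors did not separate the origins, with NANOG as the main exception. POU5F1 measured 1435 and 1463 normalised counts in the TESR origin and 1645 and 1668 in the cjPSCM origin (0.20 ± 0.17, adjusted p = 0.505). SOX2 measured 3024 and 3275 against 3329 and 3624 (0.15 ± 0.25, adjusted p = 0.763), and the RNA-binding protein LIN28A 15577 and 14246 against 13858 and 13121 (-0.14 ± 0.21, adjusted p = 0.734). For none of the 3 did the difference pass the threshold, and the interval of 2 SE around each stayed within a log2 fold change of 1 in either direction. NANOG measured 117 and 119 against 758 and 988, a 7.41-fold increase (2.89 ± 0.28, adjusted p = 2.49e-06), and with each library left out it stayed between 2.69 and 3.08 on the log2 scale. Of the 13 tested genes in the list of core pluripotency genes, 3 rose past both thresholds and 0 fell, with a median log2 fold change of 0.48. They were NANOG, UTF1, a chromatin factor of embryonic stem cells (19.2 and 19.2 against 80.8 and 105, 2.26 ± 0.44, adjusted p = 0.00166), and DPPA2 (1.65 and 2.81 against 12.4 and 21.8, 2.82 ± 0.69, adjusted p = 0.0097). DPPA2 was at few counts and lost its call without replicate 2 of the cjPSCM origin (2.40, adjusted p = 0.0987), replicate 1 of the TESR origin (2.53, adjusted p = 0.0962) or replicate 2 of the TESR origin (3.26, adjusted p = 0.0618).

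Several genes of the naive state were higher in pre-ME of cjPSCM origin. Of 13 tested members, 6 rose past both thresholds and 0 fell, while with the adjusted p alone 10 rose and 1 fell, and the median log2 fold change was 1.73 against -0.01 over all genes. KLF4, a Krüppel-like factor of the naive network, measured 26.3 and 22.5 normalised counts in the TESR origin and 121 and 144 in the cjPSCM origin (2.44 ± 0.29, adjusted p = 1.97e-05). The related factor KLF2 measured 14.8 and 14.5 against 91.4 and 113 (2.79 ± 0.35, adjusted p = 2.78e-05). GDF3, a ligand of the Nodal group, measured 19.2 and 13.1 against 114 and 157 (3.07 ± 0.46, adjusted p = 0.000183). These 3 genes showed the same picture, with both cjPSCM libraries above both TESR libraries and no overlap. PECAM1, an adhesion protein of naive cells and of endothelium, measured 747 and 622 against 3121 and 3503 (2.28 ± 0.21, adjusted p = 1.53e-06). DPPA3, a maternal and germline factor, measured 0 and 0.468 against 11.2 and 25.8. The ratio of cjPSCM over TESR for DPPA3 was 65.9 (95% counting interval 11.2 to 2658) because the TESR libraries held hardly any read (adjusted p = 0.00059). KLF5 measured 59.8 and 35.6 against 180.4 and 229.8 (2.11 ± 0.36, adjusted p = 0.00061), and its log2 fold change fell below the threshold without replicate 2 of the cjPSCM origin (1.93, adjusted p = 0.00789) or replicate 2 of the TESR origin (1.78, adjusted p = 0.0194). ANPEP, a surface aminopeptidase, rose by the adjusted p only (149 and 155 against 459 and 442, 1.57 ± 0.19, adjusted p = 1.82e-05). In the parent cjiPSCs 10 of the same 13 genes were higher in cjPSCM past both thresholds, with a median of 3.56. In the list of 20 genes of the formative and primed states, 2 rose past both thresholds, 1 fell, and the median was -0.48. By the adjusted p alone 2 of them rose and 8 fell. OTX2, a factor of the postimplantation epiblast, rose from 26.9 and 13.6 to 259 and 372 (3.98 ± 0.50, adjusted p = 3.32e-05), and the surface protein THY1 rose from 249 and 237 to 2253 and 2888 (3.41 ± 0.25, adjusted p = 1.99e-07). ETV5, a transcription factor downstream of FGF, measured 383 and 213 against 62.5 and 26.7 (-2.66 ± 0.31, adjusted p = 1.27e-05), and 2 members of this list fell without replicate 1 of the cjPSCM origin or replicate 2 of the TESR origin.

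Genes that specify primate germ cells were measured because pre-ME is the starting point for cjPGCLCs. Of 23 tested members, 5 rose past both thresholds (DPPA3, NANOG, GATA2, UTF1 and KLF4, of which all but GATA2 are also in a list described above) and 0 fell, with a median log2 fold change of 0.86. By the adjusted p alone 10 rose and 3 fell. TFAP2C, which with SOX17 and PRDM1 drives the germ cell programme of primates, measured 30.2 and 22 normalised counts in the TESR origin and 61.3 and 114 in the cjPSCM origin (1.73 ± 0.45, adjusted p = 0.0135), and its close relative TFAP2A 66.4 and 62.2 against 187 and 198 (1.59 ± 0.38, adjusted p = 0.00897). SOX17 measured 100.4 and 67.8 against 199 and 255 (1.43 ± 0.47, adjusted p = 0.0508) and just missed the threshold, while PRDM1 went the other way, from 674 and 580.1 to 408 and 290.3 (-0.84 ± 0.21, adjusted p = 0.0115). TFAP2C and TFAP2A were thus higher and PRDM1 lower in both cjPSCM libraries, all by less than the fold threshold. Without replicate 1 of the cjPSCM origin, TFAP2C passed both thresholds (2.14, adjusted p = 0.0103). GATA2 measured 45 and 47.7 against 542 and 719, a 13.6-fold increase (3.76 ± 0.25, adjusted p = 6.38e-08), and its paralogue GATA3 433 and 345 against 438 and 486 (0.25 ± 0.27, adjusted p = 0.608). EOMES, a T-box factor needed upstream of SOX17 in human germ cell induction, is not in the list counted here, so the 0 that fell does not cover it. EOMES fell from 169 and 142 to 8.84 and 3.96 (-4.47 ± 0.50, adjusted p = 8.46e-06).

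Some WNT target genes were lower in pre-ME of cjPSCM origin, and a few differed the other way. Of 22 tested WNT feedback and target genes, 4 fell past both thresholds in the cjPSCM origin and 0 rose, and by the adjusted p alone 11 fell and 3 rose, with a median of -0.79. NOTUM, a secreted enzyme that inactivates WNT ligands, measured 795 and 918 normalised counts in the TESR origin and 105 and 92.1 in the cjPSCM origin, 8.63-fold lower (-3.11 ± 0.19, adjusted p = 2.82e-08). RNF43, a ubiquitin ligase that removes WNT receptors, measured 429.6 and 351 against 46 and 30.7 (-3.32 ± 0.37, adjusted p = 1.03e-05). The other called members were GAD1, given above, and CYP26A1, which degrades retinoic acid (91.1 and 108 against 13.6 and 17.8, -2.68 ± 0.66, adjusted p = 0.0102). CYP26A1 lost its call without replicate 1 of the cjPSCM origin (-2.46, adjusted p = 0.0945), without its replicate 2 (-2.86, adjusted p = 0.0676) and without replicate 2 of the TESR origin (-2.55, adjusted p = 0.0571). Several widely used reporters of the pathway differed less. AXIN2, a scaffold of the destruction complex, measured 2480.3 and 2554 against 1931 and 1697 (-0.47 ± 0.13, adjusted p = 0.0231). SP5 had a log2 fold change of -1.32 ± 0.19, adjusted p = 0.000141. LEF1, a DNA partner of β-catenin, measured 1149.9 and 1185 against 513 and 356 (-1.42 ± 0.26, adjusted p = 0.00123). Among these reporters the libraries of TESR origin were thus the higher ones throughout, by amounts from -0.47 for AXIN2 to -1.42 for LEF1 on the log2 scale. MYC, also a WNT target, went the other way, from 326 and 304 to 873 and 991 (1.57 ± 0.28, adjusted p = 0.000973), as did APCDD1 (920.04 and 1059 against 2128 and 1929.8, 1.04 ± 0.20, adjusted p = 0.00164) and BAMBI (319 and 180.1 against 527 and 719, 1.32 ± 0.28, adjusted p = 0.00389).

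Few WNT ligands differed between the origins at this stage. Of 14 tested, WNT5B and WNT8A passed both thresholds and both were lower in the cjPSCM origin, with a median of -0.45 over the list once genes without a read in one group were set at their bounds. WNT5B measured 619.9 and 453 normalised counts against 144 and 85.2 (-2.20 ± 0.28, adjusted p = 3.22e-05) and fell short of the fold threshold without replicate 2 of the cjPSCM origin (-1.89, adjusted p = 0.00151) or replicate 1 of the TESR origin (-1.94, adjusted p = 0.000739). WNT8A, measured at 29.6 and 16.8 against 5.31 and 5.94 (-2.03 ± 0.61, adjusted p = 0.0389), lost its call whichever library was left out, with adjusted p-values from 0.0627 to 0.264. WNT3A, named in the study, measured 26.3 and 8.42 against 13 and 9.91, a range in which the TESR replicates themselves differed more than the origins (-0.55 ± 0.59, adjusted p = 0.61). Of 29 tested receptors and modulators, 0 passed both thresholds, and by the adjusted p alone 2 rose and 4 fell. Over all tested genes 8.08% rose and 5.96% fell by the adjusted p alone, so these small counts are not read as a family result.

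Several posterior genes were lower in pre-ME of cjPSCM origin. Of 11 tested genes in the list of CDX and other posterior genes, 5 fell past both thresholds and 0 rose, and the median was -1.98. The caudal factors CDX1 and CDX2, which confer posterior identity downstream of WNT, both fell. CDX1 measured 860.2 and 937 normalised counts in the TESR origin and 199 and 147 in the cjPSCM origin (-2.36 ± 0.23, adjusted p = 2.26e-06), and CDX2 336 and 213 against 27.7 and 29.7 (-3.25 ± 0.34, adjusted p = 4.71e-06). The third caudal gene, CDX4, measured 65.8 and 51.5 against 21.8 and 21.8 (-1.42 ± 0.42, adjusted p = 0.0312) and passed the adjusted p only. In the parent cjiPSCs CDX1 was at 18.2 and 16.4 in TESR and 3.77 and 1.48 in cjPSCM, so it was induced from both, to a lower level in the cjPSCM origin. EVX1, an even-skipped homeobox factor of the posterior streak, measured 547 and 403 against 111 and 70.3 (-2.35 ± 0.47, adjusted p = 0.00211). The remaining called members were CYP26A1, described with the WNT targets, and FGF17, at 5.49 and 12.2 against 1.18 and 0, a ratio of TESR over cjPSCM of 12.3 (95% counting interval 3.17 to 105). FGF17 lost its call without replicate 1 of the cjPSCM origin (-6.33, adjusted p = 0.0604), its replicate 2 (-2.81, adjusted p = 0.16) or replicate 2 of the TESR origin (-2.73, adjusted p = 0.212). Without replicate 2 of the cjPSCM origin, 3 of the 11 genes passed both thresholds. FGF8, secreted by the streak, lay just inside the fold threshold at 173 and 105 against 43.6 and 23.8 (-1.98 ± 0.32, adjusted p = 0.000318), and GBX2, a factor of the hindbrain and of pluripotent cells, at 2349 and 2848 against 844 and 778 (-1.68 ± 0.43, adjusted p = 0.0132).

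Of 17 tested primitive streak genes, 3 fell past both thresholds and 0 rose (median -0.80): EOMES, EVX1 and TBXT. By the adjusted p alone 7 fell and 1 rose. TBXT, or brachyury, was low in all 4 libraries, with a ratio of TESR over cjPSCM of 15 (95% counting interval 3.92 to 128) (-3.74 ± 0.85, adjusted p = 0.00834). Its call was lost without replicate 1 of the cjPSCM origin (-3.35, adjusted p = 0.0945), replicate 2 of that origin (-4.02, adjusted p = 0.0534) or replicate 1 of the TESR origin (-3.23, adjusted p = 0.0617). MIXL1 measured 9.33 and 6.08 normalised counts against 4.13 and 4.95, with no difference past the threshold (-0.76 ± 0.51, adjusted p = 0.378). MESP2, a factor of somite and cardiac mesoderm, was the member that was higher in the cjPSCM origin by the adjusted p alone (24.7 and 31.8 against 55.4 and 53.5, 0.94 ± 0.29, adjusted p = 0.0393).

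HOX genes record position along the body axis. Those past both thresholds were at low counts and lower in the cjPSCM origin. The summed level of the 11 genes of cluster A was 555 and 575 normalised counts in the TESR origin and 554 and 472 in the cjPSCM origin. The sums of clusters B, C and D were smaller than that of cluster A, and lower in both cjPSCM libraries. Of the 8, 5, 3 and 4 tested genes of the clusters A, B, C and D, 1, 2, 3 and 1 fell past both thresholds and 0 rose in any cluster. HOXC4 measured 12.6 and 9.36 normalised counts in the TESR origin and 0 and 0 in the cjPSCM origin, at least 9.79-fold lower, and HOXC8 measured 9.88 and 9.36 against 0 and 0, at least 8.65-fold lower. HOXC6 measured 4.94 and 7.02 against 0 and 0, at least 5.47-fold lower. No read of the 3 HOXC genes was counted in either cjPSCM library, while all 3 were counted in both TESR libraries. HOXD4 measured 24.1 and 25.3 against 0.59 and 0, a ratio of TESR over cjPSCM of 67 (95% counting interval 11.7 to 2671) (adjusted p = 0.000194). In the B cluster, HOXB9 measured 30.2 and 23.4 against 1.18 and 3.96 (-3.49 ± 0.61, adjusted p = 0.000709), and HOXB3 9.33 and 16.4 against 1.18 and 0, a ratio of 17.8 (95% counting interval 4.68 to 151). HOXA9 measured 9.88 and 13.1 against 2.95 and 0.991 (-2.34 ± 0.53, adjusted p = 0.00596) and lost its call without replicate 2 of the cjPSCM origin (-1.93, adjusted p = 0.0718) or of the TESR origin (-2.11, adjusted p = 0.0576). Without replicate 1 of the cjPSCM origin, 2 genes of cluster A were called. With a minimum mean of 1 CPM over all libraries, 0 genes of clusters B, C and D were called.

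**Figure D2:**
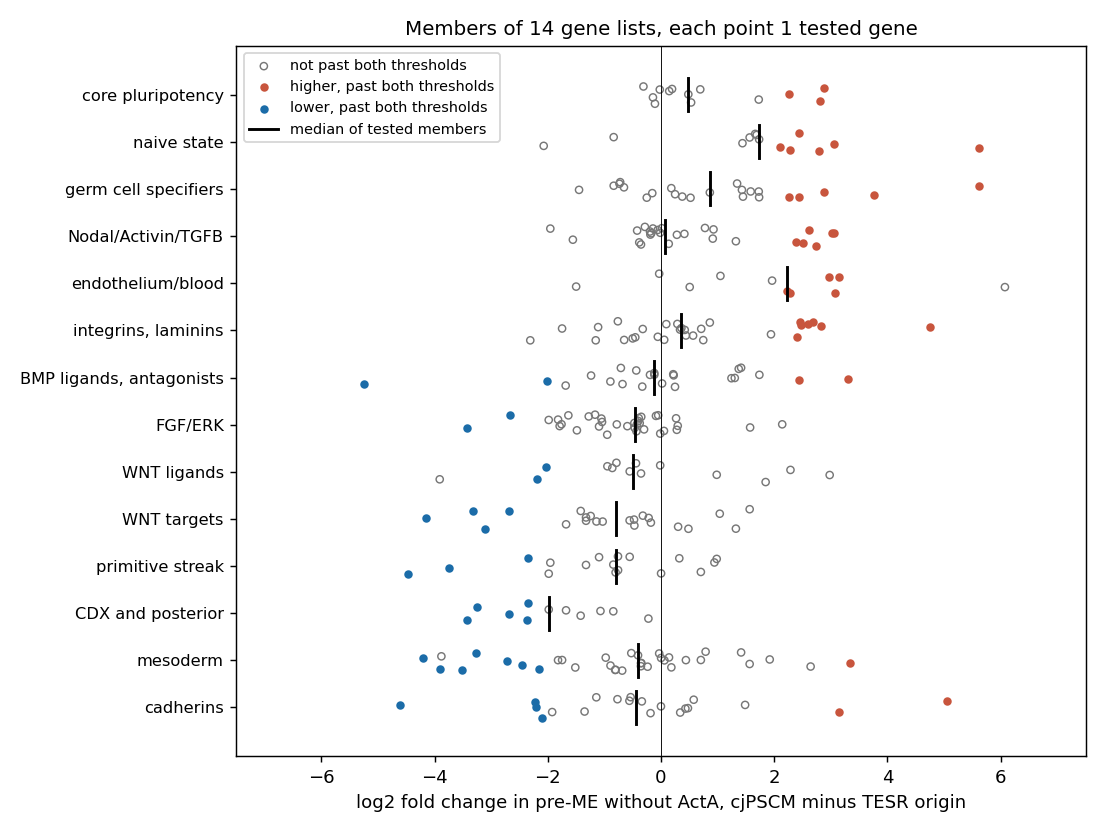
Log2 fold change of pre-ME of cjPSCM origin over TESR origin for every tested member of 14 gene lists, with 1 point per gene, filled where the gene passed both thresholds, and a bar at the median of each list. Filled points of the naive, germ cell, Nodal and TGFβ, endothelium and blood, and integrin and laminin lists lie to the right of 0, and those of the WNT target, streak and posterior lists to the left.

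Some genes of TGFβ signalling were higher in the cjPSCM origin, and neither pre-induction held ActA. Of 26 tested members of the Nodal, Activin and TGFβ list, 6 rose past both thresholds and 0 fell, with a median of 0.08. They included 3 ligands. TGFB1 measured 32.9 and 41.2 normalised counts in the TESR origin and 309 and 292 in the cjPSCM origin (3.02 ± 0.39, adjusted p = 4.01e-05), and TGFB2 30.2 and 29 against 140.3 and 168 (2.38 ± 0.25, adjusted p = 5.04e-06). INHBB, which encodes a subunit of Activin B, measured 16.5 and 8.89 against 73.1 and 82.2 (2.62 ± 0.42, adjusted p = 0.000317). Both cjPSCM libraries lay above both TESR libraries for each ligand. GDF3, given above, and PMEPA1 were also among the 6. PMEPA1, a feedback inhibitor of TGFβ signalling, measured 6.03 and 13.6 against 63.1 and 50.5 (2.51 ± 0.46, adjusted p = 0.00116). The receptor gene TGFBR2 differed by the adjusted p only (70.8 and 70.2 against 129 and 137, 0.92 ± 0.23, adjusted p = 0.0104). NODAL itself was nearly absent, at 1.1 and 2.34 against 0 and 0.991.

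BMP genes moved in both directions. Of 23 tested BMP ligands and antagonists, BMP6 and NBL1 rose, BMP5 and BMP7 fell, and the median was -0.12. BMP6, a ligand, measured 16.5 and 16.8 normalised counts in the TESR origin against 91.4 and 89.2 in the cjPSCM origin (2.43 ± 0.53, adjusted p = 0.00451), and NBL1, a secreted BMP antagonist, 17.6 and 8.89 against 117 and 143 (3.30 ± 0.43, adjusted p = 4.45e-05). BMP4, the ligand used for germ cell induction, measured 353 and 224 against 702 and 833 (1.42 ± 0.35, adjusted p = 0.011), past the adjusted p but not the fold threshold. BMP5 measured 93.3 and 70.6 against 25.3 and 12.9 (-2.01 ± 0.44, adjusted p = 0.00413), and it fell short without replicate 2 of the cjPSCM origin (-1.68, adjusted p = 0.0681) or replicate 1 of the TESR origin (-1.80, adjusted p = 0.0353). In the FGF and ERK list, 2 of 34 tested genes fell past both thresholds (FGF17 and ETV5), 0 rose, and by the adjusted p alone 11 fell and 1 rose (median -0.47). Over all tested genes, 1.22% fell and 2.68% rose past both thresholds, and 5.96% and 8.08% by the adjusted p alone. SPRY4, a feedback inhibitor of ERK signalling, measured 418 and 322 against 132 and 72.3 (-1.82 ± 0.21, adjusted p = 1.46e-05), and the transcription factor ETV4 measured 161 and 109 against 46.6 and 30.7 (-1.76 ± 0.27, adjusted p = 0.000219). Without replicate 1 of the cjPSCM origin, 5 genes of the FGF and ERK list passed both thresholds, SPRY4 (-2.34, adjusted p = 1.59e-05) and ETV4 (-2.11, adjusted p = 0.00156) among them, and without its replicate 2 only 1 did. FGF9, an FGF ligand, measured 54.9 and 44 against 18.9 and 15.9 (-1.48 ± 0.32, adjusted p = 0.00372).

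Retinoic acid genes also split. Of 21 tested, 2 rose and 3 fell past both thresholds, with a median of -0.15. Over all tested genes 2.68% rose and 1.22% fell past both thresholds. DHRS3, a retinaldehyde reductase, measured 35.7 and 22 normalised counts in the TESR origin and 180.4 and 207 in the cjPSCM origin (2.76 ± 0.37, adjusted p = 6.61e-05), and CRABP1, an intracellular carrier of retinoic acid, 141 and 191 against 961 and 891 (2.48 ± 0.24, adjusted p = 2.61e-06). The retinol transporter STRA6 measured 136 and 112 against 27.1 and 25.8 (-2.22 ± 0.37, adjusted p = 0.000465) and the nuclear receptor NR2F1 450.4 and 657 against 110.2 and 82.2 (-2.51 ± 0.28, adjusted p = 8.98e-06). For these 4 genes the libraries of the origins did not overlap, and none lost its call when any 1 library was left out. The remaining gene that fell was CYP26A1.

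Genes of mesoderm and mesenchyme differed in both directions. Of 35 tested members, 7 fell and 1 rose past both thresholds, and by the adjusted p alone 11 fell and 4 rose, with a median of -0.40. Over all tested genes 1.22% fell and 2.68% rose past both thresholds, so the 1 that rose is not read as a family result. The summed level of the list went the other way, at 23735 and 22301 normalised counts in the TESR libraries and 26442 and 30374 in the cjPSCM libraries. EYA1, a transcriptional coactivator of the developing ear and kidney, measured 348 and 380.4 normalised counts in the TESR origin and 85.5 and 77.3 in the cjPSCM origin (-2.15 ± 0.19, adjusted p = 1.12e-06). TBX1, a T-box factor of the pharyngeal region, measured 109.7 and 109.9 against 16.5 and 16.8 (-2.71 ± 0.45, adjusted p = 0.000447). Both genes were high in both TESR libraries and low in both cjPSCM libraries. TCF21, a bHLH factor of visceral mesoderm, measured 130.02 and 116 against 8.84 and 6.93 (-3.91 ± 0.44, adjusted p = 1.04e-05), and the forkhead factor FOXF2 79.6 and 57.5 against 6.48 and 4.95 (-3.51 ± 0.36, adjusted p = 3.96e-06). The zinc finger factor OSR1 measured 35.7 and 38.4 against 7.07 and 5.94 (-2.46 ± 0.55, adjusted p = 0.00542) and lost its call without replicate 2 of the cjPSCM origin (-2.36, adjusted p = 0.0561). The homeobox factor PITX1, at 10.4 and 12.6 against 1.18 and 0.991, lost its call in each of the 4 fits that left out 1 library, with adjusted p-values from 0.09996 to 0.222. The gene that rose was LUM, the matrix proteoglycan lumican, at 13.7 and 16.8 against 139 and 176 (3.34 ± 0.33, adjusted p = 3.10e-06). Without replicate 1 of the TESR origin, 2 members rose.

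Of 27 tested neural transcription factors and markers, 4 fell and 1 rose past both thresholds, with a median of -0.45. NKX2-2, a factor of the ventral neural tube, measured 41.7 and 33.7 normalised counts in the TESR origin and 0 and 0 in the cjPSCM origin, at least 33.7-fold lower (adjusted p = 4.60e-06). LHX2, a LIM homeobox factor of the forebrain, measured 99.3 and 135 against 17.1 and 17.8 (-2.74 ± 0.34, adjusted p = 2.39e-05). PAX8 measured 31.8 and 82.3 against 4.72 and 3.96 (-3.67 ± 0.78, adjusted p = 0.00417), with a wide gap between its TESR replicates, and its call was lost without replicate 2 of that origin (-2.81, adjusted p = 0.0665), which left 2 members that fell. PAX2, at 10.4 and 5.15 against 0 and 0.991, lost its call whichever library was left out, with adjusted p-values from 0.0606 to 0.262. SOX21, a SOX factor of neural progenitors, rose from 131 and 162 to 967 and 1021 (2.77 ± 0.26, adjusted p = 1.79e-06). PAX6 measured 17 and 18.7 against 14.7 and 10.9 (-0.45 ± 0.51, adjusted p = 0.636), and HEY1, a target of Notch, 246 and 208 against 110.2 and 118 (-0.99 ± 0.16, adjusted p = 0.000281). PAX6 thus did not differ past the threshold, and HEY1 was lower in both cjPSCM libraries.

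Endoderm and amnion factors gave a mixed picture. Of 14 tested endoderm genes, 3 rose past both thresholds, HHEX and SERPINA1 among them, and 0 fell (median 0.88). By the adjusted p alone 4 of them rose and 3 fell. HHEX, a homeobox factor of anterior endoderm and of blood and endothelial precursors, measured 14.3 and 11.7 normalised counts in the TESR origin against 213 and 268 in the cjPSCM origin (4.21 ± 0.35, adjusted p = 5.34e-07). GATA6 measured 132 and 82.8 against 421 and 388 (1.92 ± 0.28, adjusted p = 0.000152), just under the fold threshold, which it passed without replicate 1 of the TESR origin (2.30, adjusted p = 0.000512). The definitive endoderm factor FOXA2, in contrast, was low in all 4 libraries at 6.03 and 4.21 against 5.31 and 7.93 (0.32 ± 0.66, adjusted p = 0.81). SERPINA1, at 0 and 0.936 against 6.48 and 15.9, lost its call without replicate 2 of the cjPSCM origin (3.44, adjusted p = 0.199), replicate 1 of the TESR origin (3.36, adjusted p = 0.152) or its replicate 2 (6.55, adjusted p = 0.0757). Of 22 tested amnion and surface ectoderm genes, GATA2, EPAS1 and IGFBP3 rose past both thresholds, and CDX2, KRT8, TFAP2B and GABRP fell (median -0.31). EPAS1, a hypoxia-inducible factor, measured 73 and 72.1 against 403 and 327 (2.34 ± 0.36, adjusted p = 0.000226), and ISL1, a factor of amnion and cardiac progenitors, 207 and 223 against 59.5 and 62.4 (-1.82 ± 0.20, adjusted p = 6.49e-06). KRT8, a keratin of simple epithelia, measured 2909.9 and 1528 against 546 and 321 (-2.34 ± 0.46, adjusted p = 0.00175) and fell short of the fold threshold without replicate 1 of the TESR origin (-1.80, adjusted p = 0.0294). Without replicate 2 of the cjPSCM origin, 2 of the 4 genes that fell were still called. The calls of the other genes were less secure. IGFBP3, which binds insulin-like growth factors, measured 42.8 and 35.1 against 246 and 315 and lost its call without replicate 2 of the cjPSCM origin (2.67, adjusted p = 0.0684), replicate 1 of the TESR origin (3.0, adjusted p = 0.0686) or its replicate 2 (2.71, adjusted p = 0.112). TFAP2B, a relative of TFAP2A, measured 48.3 and 81.9 against 12.4 and 10.9 and lost its call without replicate 1 of the cjPSCM origin (-2.56, adjusted p = 0.0588), its replicate 2 (-2.38, adjusted p = 0.0712) or replicate 2 of the TESR origin (-2.02, adjusted p = 0.0854). GABRP, a subunit of GABA receptors, measured 1.1 and 6.08 against 0 and 0, and its adjusted p without the same libraries was 0.164, 0.134 and 0.335.

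Adhesion and matrix genes were described by family. Of 29 tested integrins and laminins, 7 rose past both thresholds and 0 fell, with a median of 0.36: LAMA2, ITGA1, ITGA2, ITGA2B, ITGA4, ITGA8 and ITGB3. ITGA1 and ITGA2 encode the α chains of integrins that bind collagen. ITGA1 measured 614 and 655 normalised counts in the TESR origin and 3677 and 3365 in the cjPSCM origin (2.48 ± 0.25, adjusted p = 3.49e-06), ITGA2 38.4 and 34.6 against 241 and 200.1 (2.60 ± 0.24, adjusted p = 1.53e-06), and the platelet integrin ITGA2B 9.33 and 8.89 against 70.2 and 59.4 (2.83 ± 0.35, adjusted p = 2.79e-05). ITGA6, whose protein serves as a sort marker of PGC-like cells, measured 1763 and 1935 against 3448 and 3264 (0.86 ± 0.25, adjusted p = 0.0261). ITGA8 fell short without replicate 2 of the TESR origin (1.94, adjusted p = 0.0176), and ITGB3 without replicate 2 of the cjPSCM origin (2.25, adjusted p = 0.0899) or of the TESR origin (1.90, adjusted p = 0.182). LAMA4 measured 100.4 and 95.9 against 406 and 347 (1.94 ± 0.21, adjusted p = 8.02e-06) and passed both thresholds without replicate 2 of the cjPSCM origin (2.05, adjusted p = 6.48e-05). Of 39 tested collagens, 3 rose and 5 fell past both thresholds (median -0.57), where 2.68% of all tested genes rose and 1.22% fell. COL10A1, a short-chain collagen of growth plate cartilage, measured 17 and 15.9 against 256 and 343 (4.18 ± 0.54, adjusted p = 3.83e-05), and COL5A2, a fibrillar collagen, 501 and 579 against 2592 and 2481 (2.23 ± 0.17, adjusted p = 2.10e-07). COL6A3 measured 889 and 874 against 118 and 68.4 (-3.21 ± 0.46, adjusted p = 0.000124), and COL1A2, a chain of type I collagen, 232 and 175 against 25.3 and 31.7 (-2.84 ± 0.35, adjusted p = 2.15e-05).

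Cadherins differed as well: of 20 tested, 2 rose and 4 fell past both thresholds, with a median of -0.44. CDH1, the E-cadherin of epithelia, measured 34 and 42.6 normalised counts in the TESR origin and 1.77 and 0.991 in the cjPSCM origin, a ratio of TESR over cjPSCM of 26.1 (95% counting interval 10.002 to 97.1) (adjusted p = 2.22e-06). In the parent cjiPSCs CDH1 measured 1710.5 and 2012 in TESR and 2.83 and 4.45 in cjPSCM. CDH1 was therefore next to absent from the cjPSCM cultures before and after pre-induction, and in the TESR cultures its level was lower in pre-ME than in cjiPSCs. CDH3, or P-cadherin, measured 832 and 750.4 against 211 and 122 (-2.22 ± 0.42, adjusted p = 0.00127) and fell short of the fold threshold without replicate 2 of the cjPSCM origin (-1.90, adjusted p = 0.0357). CDH7 measured 657 and 749 against 162 and 165 (-2.10 ± 0.19, adjusted p = 9.74e-07) and CDH18 132 and 171 against 34.8 and 30.7 (-2.20 ± 0.38, adjusted p = 0.000661). Both fell just short without replicate 2 of the TESR origin (-2.0, adjusted p = 5.13e-05 for CDH7 and -2.0, adjusted p = 0.0141 for CDH18), which left 2 cadherins that fell. CDH5, the VE-cadherin of endothelium, measured 76.3 and 105 against 876 and 729 (3.14 ± 0.44, adjusted p = 8.95e-05). CDH9 measured 0 and 0.936 against 15.9 and 25.8, a ratio of cjPSCM over TESR of 38.8 (95% counting interval 10.2 to 329).

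CDH5 belongs to a list of endothelial and blood markers with several members higher in the cjPSCM origin. The table held 12 members, and 11 of them could be tested. Among these 5 rose past both thresholds and 0 fell, and 7 rose by the adjusted p alone (median 2.23). The summed level of the list was 1681 and 1662 normalised counts in the TESR libraries and 6599.6 and 6378 in the cjPSCM libraries. TIE1, a receptor of the angiopoietin pathway, measured 65.8 and 54.3 against 568 and 444 (3.08 ± 0.32, adjusted p = 4.39e-06), and TAL1, the bHLH factor that specifies blood and endothelial precursors, 54.9 and 72.5 against 519 and 485 (2.98 ± 0.30, adjusted p = 2.81e-06). CD34 measured 84.5 and 109 against 498 and 407 (2.23 ± 0.43, adjusted p = 0.00155). PECAM1, also counted among the naive genes above, was the remaining member past both thresholds. Markers of mature cells were at or near 0 in all 4 libraries: VWF, the clotting factor of endothelium, measured 4.94 and 5.61 against 2.95 and 0, and the leukocyte antigen PTPRC 2.19 and 0.936 against 2.36 and 1.98. GATA1, of red cells and platelets, measured 0 and 0.468 against 0 and 2.97. KDR, the main VEGF receptor, did not differ past the threshold (454 and 527 against 558 and 397, -0.03 ± 0.19, adjusted p = 0.945). The same list was higher in cjPSCM in the parent cjiPSCs, where 7 of the 11 genes passed both thresholds. Any part of such cells in the higher levels of LYL1, GATA2, HHEX and ITGA2B was not tested.

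Markers of other cells that could be present did not separate the origins in the same way. Of 14 fibroblast markers LUM and THY1 rose and COL1A2 fell, and their summed level lay at 15021 and 14708 normalised counts in the TESR libraries and 12339.6 and 12732 in the cjPSCM libraries. Of 10 tested neuronal markers, 0 passed both thresholds and by the adjusted p alone 1 rose and 1 fell. Only 3 of 9 trophoblast markers in the table had enough counts for a test, and 0 of them passed both thresholds.

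In the list of glycolysis and hypoxia genes, 3 of 31 rose past both thresholds and 0 fell (median 0.28). Over all tested genes 2.68% rose past both thresholds and 1.22% fell. The small counts in the lists of this paragraph are therefore not read as results about a family. PFKP, the platelet isoform of phosphofructokinase, measured 246 and 197 normalised counts in the TESR origin and 2031 and 2068 in the cjPSCM origin (3.22 ± 0.24, adjusted p = 2.02e-07). The lactate exporter SLC16A3 measured 225 and 247 against 1881 and 2269 (3.14 ± 0.21, adjusted p = 6.22e-08), and the hypoxia-induced peptide ADM 19.2 and 19.2 against 185 and 248 (3.48 ± 0.39, adjusted p = 9.46e-06). For each of the 3 both cjPSCM libraries lay well above both TESR libraries. CDKN1A, the p21 inhibitor of cyclin-dependent kinases, was the single member of 22 G1 genes past both thresholds (134 and 79.1 against 679.7 and 861, 2.86 ± 0.31, adjusted p = 7.76e-06), and without replicate 1 of the cjPSCM origin there were 2. ABCG1, a cholesterol exporter, and MYLIP, which degrades the LDL receptor, were the 2 called of 30 cholesterol genes, with log2 fold changes of 4.27 ± 0.76, adjusted p = 0.000862 for ABCG1 and 2.75 ± 0.44, adjusted p = 0.000306 for MYLIP. No member passed both thresholds among 16 DNA methylation genes, 31 histone methylation genes, 49 ephrin and semaphorin genes, 8 SRC family genes or 11 genes of the mitochondrial genome. By the adjusted p alone the ephrin and semaphorin list held 4 higher and 10 lower genes, and the medians of these lists lay between -0.32 and 0.06.

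The differences between the pre-ME cultures were then set beside those between the parent cjiPSCs, which come from other libraries. In cjiPSCs 871 genes were higher in cjPSCM (5.51% of the tested genes) and 579 lower (3.67%), and the SD of the log2 fold change over genes was 1.35, against 0.90 in pre-ME. Across the 15797 genes the differences at the 2 stages had a Pearson correlation of 0.643, given as a description, since genes are not independent and the cultures of a medium descend from the same line. Of the 424 genes higher in pre-ME of cjPSCM origin, 322 were also called higher in cjiPSCs (75.9% of the pre-ME list and 37.0% of the cjiPSC list). Of the 193 lower genes, 136 were also called lower in cjiPSCs (70.5% and 23.5%). By the adjusted p alone in pre-ME, 468 of the 871 genes higher in cjPSCM among cjiPSCs and 285 of the 579 lower ones differed the same way. Replicates also differed more from each other among cjiPSCs than in pre-ME, as given above.

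**Figure D3:**
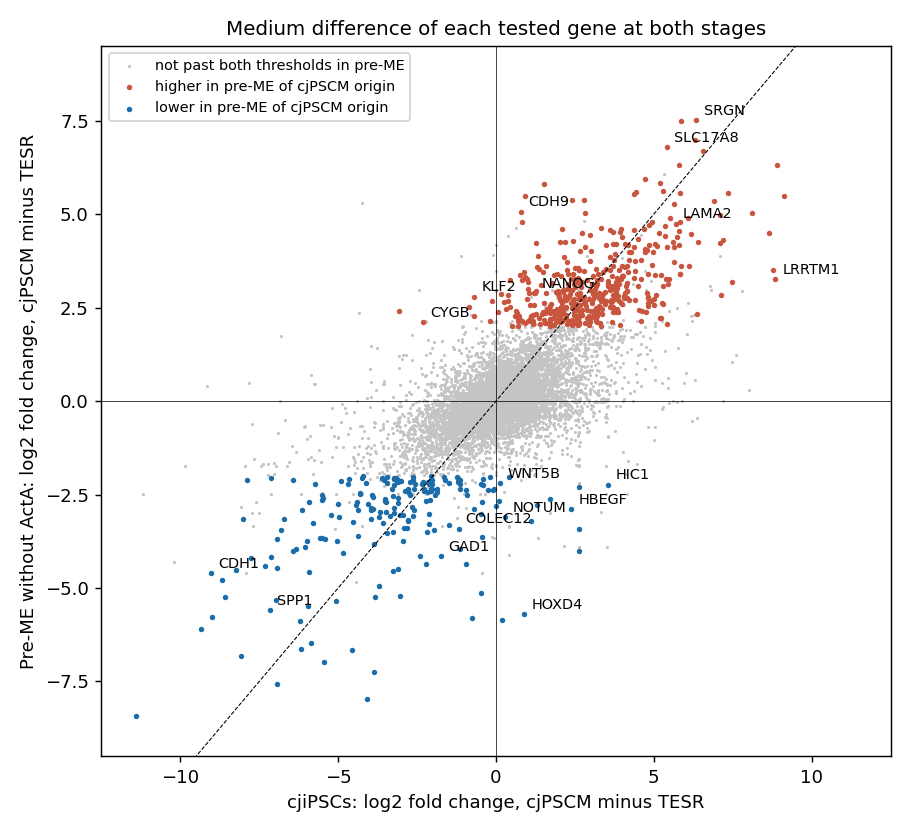
Log2 fold change of cjPSCM over TESR for each tested gene, in parent cjiPSCs on the horizontal axis and in pre-ME without ActA on the vertical axis, with genes called in pre-ME in colour. Most coloured points lie in the quadrants where both stages differ the same way, and the cloud is wider along the cjiPSC axis (SD 1.35) than along the pre-ME axis (SD 0.90).

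Whether the medium difference itself changed from cjiPSCs to pre-ME was tested as an interaction. The labels give no run or date, so a difference between runs cannot be told apart from an interaction either. It passed both thresholds upwards in 129 genes (0.817% of the tested genes) and downwards in 171 (1.08%), and these counts depended on the cjiPSC libraries: without replicate 2 of the cjPSCM cjiPSCs there were 447 upward genes, and without replicate 1 there were 476 downward ones. Without 1 library of pre-ME there were 87 to 102 upward and 95 to 127 downward genes, and without replicate 1 of the TESR cjiPSCs 93 and 82. The interaction contains the cjiPSC difference: 112 of the 129 were lower in cjPSCM among cjiPSCs by the adjusted p and 159 of the 171 were higher, where that threshold alone was passed by 18.1% of the tested genes in either direction, and the median difference in pre-ME was -0.18 and -0.02. LGR5, an R-spondin receptor and WNT target, measured 496 and 252 normalised counts in TESR cjiPSCs and 11.3 and 8.89 in cjPSCM cjiPSCs, but 176 and 124 and 154 and 107 in the pre-ME from them. Its medium difference was -5.21 before and -0.18 after pre-induction on the log2 scale (interaction 5.03 ± 0.53, adjusted p = 3.75e-05), and all 4 pre-ME libraries lay in one range. NGFR, the low-affinity neurotrophin receptor, measured 1046 and 1849 against 13.2 and 20.8 in cjiPSCs and 6.03 and 4.68 against 1.77 and 2.97 in pre-ME (interaction 5.26 ± 1.24, adjusted p = 0.0171), and its interaction lost its call without replicate 1 of the cjPSCM pre-ME (5.68, adjusted p = 0.0774) or its replicate 2 (4.95, adjusted p = 0.143). LRRTM1, a synaptic adhesion protein, went from 3.31 and 7.45 against 2521 and 1782 in cjiPSCs to 31.3 and 33.2 against 298 and 319.98 in pre-ME (interaction -5.59 ± 0.51, adjusted p = 1.04e-05), and was still 9.56-fold higher in the cjPSCM origin.

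The interaction was also called in 28 of the 424 genes higher in pre-ME and in 21 of the 193 lower ones. In 13 genes of either set it narrowed the cjiPSC difference, as for TBX1 (interaction 3.20 ± 0.68, adjusted p = 0.00993), whose call was lost without replicate 1 of the cjPSCM pre-ME (3.23, adjusted p = 0.0556). In 15 of the higher and 8 of the lower genes the interaction had the direction of the pre-ME difference. These include genes whose difference was reversed between the stages, described below. NOTUM was the clearest of the WNT genes: it measured 9.36 and 7.45 normalised counts in TESR cjiPSCs and 11.3 and 10.4 in cjPSCM cjiPSCs (0.29 ± 0.41, adjusted p = 0.659), and after the same dose of CHIR 795 and 918 against 105 and 92.1 (interaction -3.40 ± 0.48, adjusted p = 0.000615). All 4 cjiPSC libraries lay in one narrow range, and the pre-ME libraries split by origin. AXIN2, in contrast, was higher in cjPSCM among cjiPSCs, at 159.8 and 214 in TESR and 672 and 808 in cjPSCM (1.98 ± 0.15, adjusted p = 4.24e-08), and slightly lower in pre-ME (interaction -2.45 ± 0.20, adjusted p = 5.69e-06). FGF8 also lay higher in both cjPSCM libraries among cjiPSCs, at 11.6 and 10.4 against 26.4 and 26.7, though not past the threshold (1.21 ± 0.47, adjusted p = 0.056), and lower in pre-ME (interaction -3.19 ± 0.57, adjusted p = 0.00313), and WNT5B also gained its difference in pre-ME (interaction -2.32 ± 0.40, adjusted p = 0.00249). KLF2 measured 157 and 261 in TESR cjiPSCs and 167 and 84.5 in cjPSCM cjiPSCs, with no difference past the threshold (-0.70 ± 0.30, adjusted p = 0.0787), and separated the origins in pre-ME (interaction 3.49 ± 0.46, adjusted p = 0.000328). None of these interactions, of NOTUM, AXIN2, FGF8, WNT5B and KLF2, lost its call when any 1 library was left out.

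The genes called in opposite directions at the 2 stages were HBEGF, HIC1 and CYGB. HBEGF, a ligand of the EGF receptor, measured 11 and 26.8 normalised counts in TESR cjiPSCs and 113 and 57.8 in cjPSCM cjiPSCs (2.38 ± 0.36, adjusted p = 7.40e-05), but 229.9 and 267 and 35.4 and 30.7 in the pre-ME (-2.89 ± 0.31, adjusted p = 4.95e-06). HIC1, a transcriptional repressor, measured 19.8 and 20.8 against 247 and 237 in cjiPSCs and 38.4 and 32.8 against 10.6 and 2.97 in pre-ME (-2.23 ± 0.51, adjusted p = 0.0064), where its call was lost without replicate 2 of the cjPSCM origin (-1.73, adjusted p = 0.0939). CYGB, the globin cytoglobin, was the one gene higher in pre-ME and lower in cjiPSCs (3.29 and 2.34 against 11.2 and 13.9 in pre-ME, 2.11 ± 0.58, adjusted p = 0.0209), and its call in pre-ME was lost in each of the fits that left out 1 library, with adjusted p-values from 0.0527 to 0.198. HBEGF kept its call in all 4 such fits. The glucocorticoid receptor NR3C1 was among the other genes whose interaction had the direction of the pre-ME difference. NR3C1 rose from 25.2 and 18.7 in the TESR origin to 202 and 222 in the cjPSCM origin (3.27 ± 0.31, adjusted p = 1.80e-06), with an interaction of 2.29 ± 0.42, adjusted p = 0.0037. The growth factor PDGFD rose from 51.6 and 55.2 to 451 and 530.002 (3.20 ± 0.33, adjusted p = 3.58e-06), with an interaction of 2.17 ± 0.44, adjusted p = 0.00758. APLN, the ligand of the apelin receptor, rose from 132 and 107 to 550.01 and 593 (2.27 ± 0.38, adjusted p = 0.000452), with an interaction of 2.97 ± 0.51, adjusted p = 0.00241. The interaction fell below the fold threshold for NR3C1 without replicate 1 of the TESR cjiPSCs (1.97, adjusted p = 0.0353) and for PDGFD without replicate 2 of the cjPSCM cjiPSCs (1.63, adjusted p = 0.000412). COLEC12, among the 12 largest decreases, had a difference of -1.19 in cjiPSCs and -3.42 in pre-ME (interaction -2.23 ± 0.32, adjusted p = 0.000646).

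**Figure D4:**
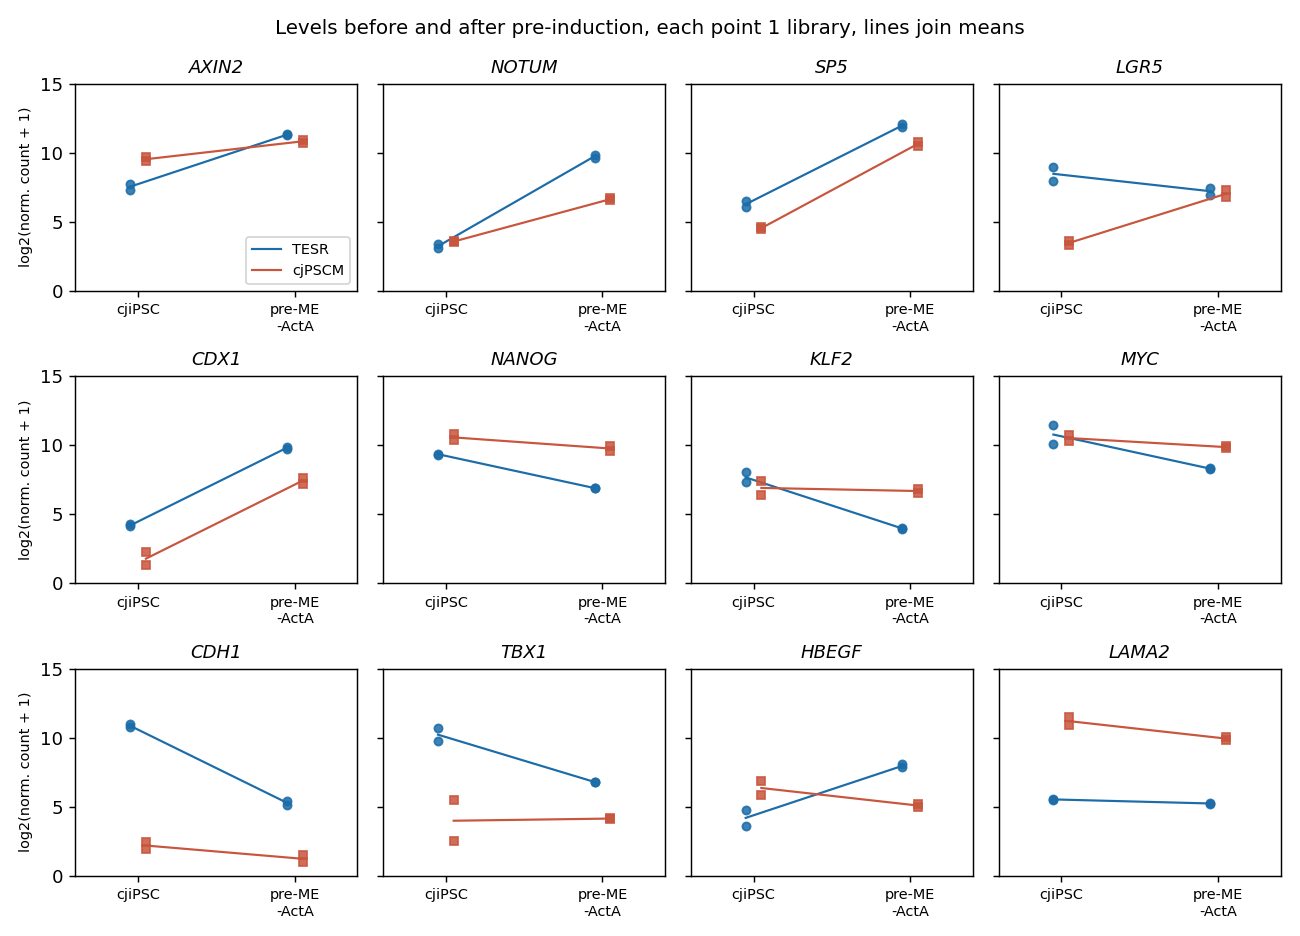
Level of 12 genes as log2(normalised count + 1) in parent cjiPSCs and in pre-ME without ActA, with 1 point per library, 1 colour per medium and lines between the group means. NOTUM starts level and separates by origin, LGR5 and AXIN2 start apart and come together, HBEGF crosses over, and CDH1 drops in the TESR cultures while it stays low in the cjPSCM cultures.

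When ActA had been added to the same pre-induction, 424 genes were higher (2.68%) and 227 lower (1.44%) in the cjPSCM origin, and of the 424 and 193 genes called without ActA, 274 and 103 were called the same way with it. The medium difference itself differed between the conditions without and with ActA in 13 genes upwards (0.0823%) and 5 downwards (0.0317%). When 1 library was left out the counts ranged from 3 to 13 and from 1 to 6. Without replicate 2 of either origin without ActA, or without replicate 1 of the cjPSCM origin with ActA, there were 3 upward genes and 1 downward gene, and without replicate 1 of the TESR origin with ActA there were 6 and 1. NANOG was among the 13 (difference 2.44 ± 0.38, adjusted p = 0.0114): with ActA it measured 1052 and 1106 normalised counts in the TESR origin and 1406 and 1581 in the cjPSCM origin (log2 fold change 0.45, adjusted p = 0.199). That difference of NANOG lost its call without replicate 2 of the cjPSCM origin (2.25, adjusted p = 0.0612) or of the TESR origin (2.47, adjusted p = 0.0727), both without ActA, and without replicate 1 of the cjPSCM origin with ActA (2.36, adjusted p = 0.0794).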

How the data were processed

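Poly(A) RNA-seq libraries were made from whole pre-ME cultures. The authors checked paired-end reads with FastQC 0.11.8, mapped them with STAR 2.7.0a to the marmoset assembly calJac4, and deposited HTSeq 0.11 raw counts per gene and library. The annotation release and the strand setting of the counting are not given in the sources used here, so reads of overlapping, antisense or near-identical genes may be shared or lost. The authors further deposited a normalised signal, which is the raw count over the DESeq2 size factor of the library. Reads on no gene and ambiguous reads stayed out of library sizes and tests.

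Groups came from the sample labels. Raw counts were tested with edgeR 4.0.16 (quasi-likelihood F-test, TMM, filterByExpr by group) in R 4.3.3, with 1 model of group means over all 20 libraries that kept 15797 genes and had 10 residual degrees of freedom. Two-sided p-values received the Benjamini-Hochberg adjustment over all tested genes, and calls needed an adjusted p below 0.05 together with an absolute log2 fold change above 2. The interaction is the medium difference in pre-ME minus that in cjiPSCs. Where the lower group had no read, the fold is a bound against 3 counts over the group. Where both of its libraries had at most 3 counts, the ratio of normalised counts is given with a 95% interval, for counting error only.

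Genes were named by rule: the 12 each way with the largest fold change, a symbol, no overlap and a mean of at least 100 normalised counts in the higher group, the 5 each way for the interaction, members of 45 gene lists (those called, then defining members), and genes that the study names. A few genes that the rule names are not reported here. The comparison and the lists were chosen with earlier results of these data known.

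Alternatives were DESeq2 1.42.0 and its size factors, fits of the compared libraries alone, no filter, a mean of 1 CPM, a test against a log2 fold change of 2, the adjusted p alone, thinned counts, a replicate block, and each library left out. Simulated counts for this comparison had 200 of 15875 tested genes changed by 3 on the log2 scale. The model called 200 of these and 0 others. That change lies past the threshold of 2, and smaller changes were not tested. Whether calls in the real libraries are as reliable was not tested. No genome or sequence of calJac4 was used here, so no coordinates or sequences are given.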

Additional observations from a re-analysis of the deposited data

Results flagged for a closer look

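The medium difference itself differed between stages or conditions in the counts given above, 129 genes upwards and 171 downwards between pre-ME without ActA and cjiPSCs, and 13 upwards and 5 downwards between pre-ME without and with ActA. The values that follow are log2 differences between 2 medium differences, each tested with edgeR as an interaction.

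Between pre-ME and cjiPSCs the interaction was positive for KLHDC7A (6.11), NGFR (5.26), KCNQ5 (5.24), CXCL14 (5.195), RGS7BP (5.08), LGR5 (5.03), CDH1 (4.43), CYGB (4.42), CDH9 (4.28), KLF2 (3.49), TBX1 (3.20), APLN (2.97), CDH3 (2.45), BMP3 (2.38), ITGA8 (2.29), NR3C1 (2.29), NR5A2 (2.22), PDGFD (2.17) and IFIH1 (2.09). It was negative for HOXD4 (-6.59), FGF3 (-6.06), HIC1 (-5.78), LRRTM1 (-5.59), HBEGF (-5.27), BCL3 (-5.26), ITGA2B (-4.30), NOTUM (-3.40), FGF8 (-3.19), INHBB (-2.63), AXIN2 (-2.45), CXCR4 (-2.34), WNT5B (-2.32), COLEC12 (-2.23) and GATA6 (-2.08). For FGF3, HOXD4, KCNQ5, KLHDC7A, RGS7BP, CDH1, CDH9, BCL3, NGFR and CYGB, both libraries of at least 1 group held 3 counts or fewer, so the fitted size depends on the prior count of the model.

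Many of these calls did not hold when 1 library was left out of the edgeR fit, and the values in parentheses are then the log2 difference and its adjusted p. A call was also lost where the difference fell to 2 or less. The call was lost without replicate 1 of the cjPSCM pre-ME for KLHDC7A (5.32, 0.161), NGFR (5.68, 0.0774), HOXD4 (-8.66, 0.0529), INHBB (-2.52, 0.0663), TBX1 (3.23, 0.0556), CDH1 (3.93, 0.267) and CDH3 (2.00, 0.107). It was lost for NGFR (4.95, 0.143), KCNQ5 (3.73, 0.4), FGF3 (-5.77, 0.088), BMP3 (2.23, 0.0775), HOXD4 (-6.02, 0.0813), INHBB (-2.70, 0.0635), ITGA8 (2.08, 0.115), CDH9 (3.95, 0.103) and IFIH1 (1.99, 0.0612) without replicate 2 of the cjPSCM pre-ME. Leaving out replicate 1 of the TESR pre-ME ended it for FGF3 (-6.22, 0.064), HOXD4 (-6.60, 0.0577), INHBB (-2.12, 0.15), CDH3 (2.54, 0.0635), CDH9 (3.53, 0.131), IFIH1 (1.93, 0.0871) and GATA6 (-1.69, 0.0384). The call was lost without replicate 2 of the TESR pre-ME for FGF3 (-5.74, 0.0955), BCL3 (-4.20, 0.358), HOXD4 (-6.53, 0.0604), ITGA8 (1.56, 0.163), CDH3 (2.39, 0.086), IFIH1 (2.32, 0.0517) and CXCR4 (-1.93, 0.0332). It was lost for FGF3 (-5.24, 0.133), HOXD4 (-6.32, 0.0648), ITGA8 (1.93, 0.0291), PDGFD (1.63, 0.000412), NR5A2 (1.85, 0.00577) and CXCR4 (-1.88, 0.0452) without replicate 2 of the cjPSCM cjiPSCs. Leaving out replicate 1 of the TESR cjiPSCs ended it for FGF3 (-6.01, 0.221), INHBB (-2.30, 0.164), ITGA8 (1.86, 0.141), CDH9 (4.15, 0.303), CYGB (3.44, 0.104), NR3C1 (1.97, 0.0353), IFIH1 (1.83, 0.0701), GATA6 (-1.88, 0.0422), NR5A2 (1.99, 0.0474) and CXCR4 (-2.05, 0.0874). The call was lost without replicate 1 of the cjPSCM cjiPSCs for BMP3 (1.94, 0.0525), CDH3 (1.70, 0.0328), CDH9 (4.25, 0.0505), IFIH1 (1.98, 0.0141) and GATA6 (-1.89, 0.00532).

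RGS7BP, an anchor of G protein regulators, measured 296 and 211 normalised counts in TESR cjiPSCs and 0.942 and 2.96 in cjPSCM cjiPSCs, and 106 and 97.3 and 26.5 and 21.8 in the pre-ME from them. BCL3, a nuclear partner of NF-κB, measured 1.1 and 0 and 432 and 368 in cjiPSCs and 0.549 and 1.87 and 16.5 and 13.9 in pre-ME. CXCL14, a chemokine, measured 52.9 and 174 and 8.48 and 7.41 in cjiPSCs and 9.33 and 2.81 and 14.7 and 17.8 in pre-ME. The differences of RGS7BP and BCL3 were thus smaller in pre-ME than in cjiPSCs. That of CXCL14 changed sign, from -3.76 in cjiPSCs to 1.43 in pre-ME on the log2 scale, and did not pass the threshold in pre-ME (adjusted p = 0.176).

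Between pre-ME without and with ActA the difference was positive for ADM (3.02), NANOG (2.44) and GATA6 (2.11) and negative for LRRTM1 (-2.91). With ActA, ADM measured 91.9 and 59.4 normalised counts in the TESR origin and 113 and 94.1 in the cjPSCM origin, GATA6 582 and 337 and 459 and 349.7, and LRRTM1 2.19 and 6.9 and 280.4 and 403.

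None of these 4 calls with ActA held in every fit that left out 1 library, with the log2 difference and its adjusted p in parentheses. The call was lost without replicate 2 of the cjPSCM pre-ME for LRRTM1 (-2.94, 0.0612), NANOG (2.25, 0.0612), ADM (2.82, 0.0841) and GATA6 (2.19, 0.0818). It was lost for LRRTM1 (-2.84, 0.0921), NANOG (2.47, 0.0727), ADM (3.04, 0.11) and GATA6 (1.83, 0.159) without replicate 2 of the TESR pre-ME. Leaving out replicate 2 of the cjPSCM pre-ME with ActA ended it for LRRTM1 (-2.64, 0.0695), ADM (2.90, 0.0815) and GATA6 (1.93, 0.11). The call was lost without replicate 1 of the TESR pre-ME with ActA for LRRTM1 (-2.32, 0.161), ADM (2.68, 0.144) and GATA6 (1.67, 0.173). It was lost for NANOG (2.36, 0.0794), ADM (3.19, 0.0826) and GATA6 (2.34, 0.0807) without replicate 1 of the cjPSCM pre-ME with ActA. Leaving out replicate 1 of the TESR pre-ME ended it for ADM (3.05, 0.0747). The call was lost without replicate 1 of the cjPSCM pre-ME for GATA6 (2.08, 0.0544).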

How the results depend on the processing

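The counts of 424 higher and 193 lower genes stayed within 1.5 times under both tools, both size factors, each filter, thinning and the fit of 4 libraries alone, and ranged from 346 to 445 and from 139 to 192 with 1 library left out. The test against a log2 fold change of 2 called 107 and 43, and the adjusted p alone 1276 and 942. The interaction with cjiPSCs (129 upward, 171 downward) ranged from 87 to 447 and from 82 to 476 with 1 library left out. It called 39 and 50 with edgeR on the 8 libraries alone, 80 and 112 with DESeq2 on them, 4 and 4 against a log2 fold change of 2, 466 and 567 with the adjusted p alone, and 281 downward without a filter. The interaction with ActA (13 and 5) ranged from 3 to 13 and from 1 to 6, and was 55 and 38 with edgeR on 8 libraries, 30 and 12 with DESeq2 on 20, 24 and 10 with DESeq2 on 8, 57 and 26 without a filter, 0 and 0 against a log2 fold change of 2, 38 and 25 with the adjusted p alone, and 2 downward after thinning. The genes shared with cjiPSCs numbered 981 higher, 679 lower, 19 and 24 opposite with the adjusted p alone, and DESeq2 left 0 genes higher in pre-ME and lower in cjiPSCs. The causes were not tested.

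The groups share replicate numbers in the labels. The correlation over genes of the replicate differences of the 2 origins was -0.053 over only 2 pairs, so the numbers were not taken to pair the cultures. With the replicate number as a block, 424 and 192 genes were called in pre-ME, 127 and 159 for the interaction with cjiPSCs and 15 and 6 for that with ActA.

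Genes near 0 changed sign with 1 library left out. WNT3A (-0.55) ranged from -1.16 to 0.47, where the positive value was found without replicate 1 of the TESR pre-ME. LGR5 (-0.18) ranged from -0.47 to 0.11, and was 0.05 without replicate 2 of the cjPSCM pre-ME and 0.11 without replicate 1 of the TESR pre-ME. KDR (-0.03) ranged from -0.29 to 0.19, and was 0.19 without replicate 2 of the cjPSCM pre-ME and 0.08 without replicate 2 of the TESR pre-ME. In the shallowest library 3 counts correspond to 0.287 CPM, and levels below that could not be told from 0.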
